A study of Mus musculus with 6 samples.

Results

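The Toll-like receptor set examined here held 10 genes of 18193 measured, namely the receptors Tlr1, Tlr2, Tlr3, Tlr4, Tlr6, Tlr7 and Tlr9, the receptor-like protein Cd180, the chaperone Unc93b1 and the adaptor Myd88. A probe set counted for a member if the array annotation gave it that gene symbol and no other, and the probe set with the highest mean over the 6 arrays stood for the gene. All 10 genes had such a probe set, and the 16 probe sets of the set are all described. RNA came from germinal centre B cells that had been prepared with magnetic beads from mouse spleens after immunisation with sheep red blood cells, and it was read on Affymetrix mouse expression arrays. ImHABCL6/Uchl1 mice (3 arrays) carried a Uchl1 transgene, which encodes a deubiquitinating enzyme, on top of the ImHABCL6 allele, and ImHABCL6 mice (3 arrays) carried the ImHABCL6 allele alone. That allele, shared by all 6 mice, places a haemagglutinin-tagged BCL6 under a promoter of the immunoglobulin heavy chain locus, so that no group here has BCL6 under its own control alone. The sources used here do not give the promoter of the Uchl1 transgene or the ages of the mice.

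Toll-like receptors are leucine-rich repeat receptors for microbial molecules. TLR1, TLR2, TLR4 and TLR6 sit at the cell surface and bind bacterial lipopeptides or lipopolysaccharide, whereas TLR3, TLR7 and TLR9 bind nucleic acids in endosomes and reach them with the help of UNC93B1. All of them except TLR3 signal through MYD88, which assembles IRAK kinases and TRAF6 and leads to NF-kB, and CD180 is a relative without the cytoplasmic signalling domain that is prominent on B cells. B cells can receive such signals beside those of the antigen receptor, and activating mutations of MYD88 occur in human B-cell lymphomas.

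None of the 10 genes differed between the genotypes beyond the spread between mice. In every member the ranges of ImHABCL6/Uchl1 and ImHABCL6 arrays overlapped, and the limma adjusted p over 18193 genes was 0.998 for each. Differences are given on the log2 scale as ImHABCL6/Uchl1 minus ImHABCL6, and they ran from -0.24 for Tlr4 to 0.38 for Cd180, with 8 members above 0 and 2 below. Their median was 0.08, beside 0.0029 over all genes, of which 50.6% were above 0. Groups without overlap occurred in 0 of the 10 members and in 9.44% of all genes (5.49% lower and 3.95% higher in ImHABCL6/Uchl1). An unadjusted p under 0.05 was reached by 0 of the 10 members and by 4.94% of all genes (898 genes, 3.85% lower and 1.09% higher). No gene at all passed the adjusted threshold of 0.05 (0% of those tested). The absence of a call sets no equality, and the 95% intervals given with each gene show which differences remain possible with 3 arrays per group.

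Uchl1 itself read 5.96, 5.87 and 6.02 in ImHABCL6/Uchl1 arrays and 5.01, 4.999 and 5.02 in ImHABCL6 arrays. The probe set annotated to Uchl1 thus went with the labels. Whether that probe set reads the transgene, the mouse's own gene or both was not tested. That probe set lay above 38.5% of genes, and its difference was 0.94 (SE 0.12, limma adjusted p = 0.638). Even the gene of the transgene thus did not pass the adjusted threshold. B-cell markers were bright on every array, and 7 measured markers (among them Ms4a1, Cd79b and Cd22) had a median level above 98.4% of genes. The 9 measured germinal centre markers lay at 93.7%. Their means were 10.27 to 10.92 in ImHABCL6/Uchl1 arrays and 10.47 to 10.62 in ImHABCL6 arrays. The mean of the B-cell markers was 11.67, 11.43 and 11.44 in ImHABCL6/Uchl1 arrays, above the 11.38, 11.27 and 11.35 of ImHABCL6 arrays (exact two-sided permutation p = 0.1, the smallest that 3 against 3 allows). Single B-cell markers were uneven, with differences of 0.48 (Pax5), 0.39 (Cd37), 0.22 (Cd79a) and 0.13 (Cd22). Those of Ms4a1 (0.05), Blnk (0.008) and Cd79b (-0.03) were smaller, and 0 of the 7 passed. Red-cell transcripts were also bright, at 96.5% for the median of 10 measured markers. Their mean was 9.07, 10.75 and 10.33 in ImHABCL6/Uchl1 arrays and 10.47, 10.94 and 11.31 in ImHABCL6 arrays, with ImHABCL6/Uchl1 replicate 1 the lowest and the other arrays of the groups overlapping (exact two-sided permutation p = 0.2). Of the 10, 9 were lower in ImHABCL6/Uchl1 (median -0.99) and 0 passed. Median megakaryocyte and platelet markers lay above 70.9% of genes and plasma cell markers above 64.1%. Median macrophage, neutrophil, dendritic, T-cell, NK-cell and stromal markers lay above 25.2%, 38.0%, 36.9%, 39.9%, 11.7% and 31.2% of genes. In bulk RNA such as this, fewer cells of a type and less RNA per cell cannot be told apart. Signals of different probe sets are set beside the distribution of all genes and not ranked against each other, because probes differ in efficiency.

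**Figure D1:**
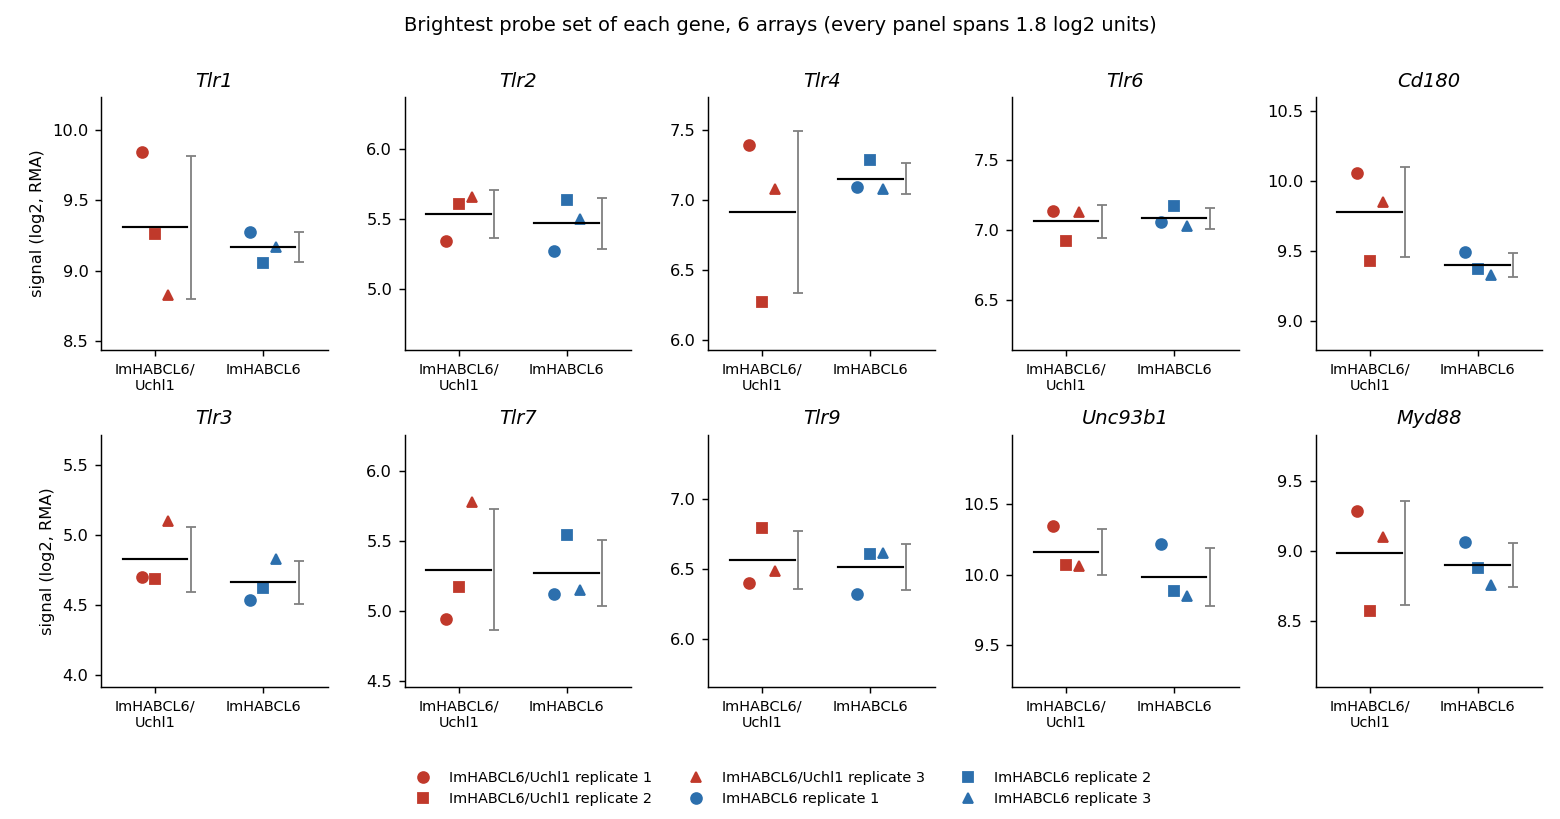
Signal of the brightest probe set of each gene (log2, RMA) in ImHABCL6/Uchl1 arrays (left, red) and ImHABCL6 arrays (right, blue). Points are single arrays with the replicate shown by shape, black lines are group means and grey bars are the SD of 3 arrays. The groups overlap in all 10 panels, and Tlr4, Tlr1 and Cd180 spread most in ImHABCL6/Uchl1 arrays relative to ImHABCL6 arrays.

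Among the surface receptors the transcript of Tlr1, which pairs with TLR2 to bind triacylated lipopeptides, was bright (above 82.0% of genes) and uneven in the transgenic group. It read 9.84, 9.26 and 8.83 in ImHABCL6/Uchl1 arrays, against 9.27, 9.06 and 9.17 in ImHABCL6 arrays. The transgenic mice thus held the highest and the lowest value, with the controls between them. The difference was 0.14 (SE 0.24, 95% interval -0.42 to 0.70), which became -0.12 when replicate 1 of the transgenic group was left out and 0.38 when its replicate 3 was.

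Tlr6, which pairs with TLR2 for diacylated lipopeptides, was the most even member. Its values were 7.13, 6.92 and 7.12 in ImHABCL6/Uchl1 arrays and 7.06, 7.17 and 7.02 in ImHABCL6 arrays. The difference of -0.02 (SE 0.13) had a 95% interval from -0.32 to 0.28, so a change of 1.25-fold down or 1.21-fold up lies at its edges. Tlr1 and Tlr6 are neighbouring paralogues of similar sequence on chromosome 5, and neither probe set carries a suffix for shared probes. Tlr2, their common partner, lay above 38.9% of genes, at 5.34, 5.61 and 5.66 in ImHABCL6/Uchl1 arrays against 5.28, 5.64 and 5.50 in ImHABCL6 arrays. Its groups covered nearly the same range, and the difference was 0.07 (SE 0.15, 95% interval -0.29 to 0.42).

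Tlr4, the lipopolysaccharide receptor, had 4 probe sets, which did not point one way. The brightest (1418162_at, above 57.3% of genes) read 7.39, 6.27 and 7.08 in ImHABCL6/Uchl1 arrays and 7.09, 7.28 and 7.08 in ImHABCL6 arrays. ImHABCL6/Uchl1 replicate 2 stood alone at the low end, while replicate 1 lay above all controls and replicate 3 was level with the lowest of them. The difference was -0.24 (SE 0.27, 95% interval -0.85 to 0.38), and it was 0.08 without that replicate and -0.48 when replicate 1 of the group was left out instead.

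The probe set 1418163_at gave 6.98, 6.16 and 6.93 in ImHABCL6/Uchl1 arrays and 6.50, 6.50 and 6.39 in ImHABCL6 arrays. Here replicates 1 and 3 of the transgenic group lay above every control and replicate 2 lay below every control, for a difference of 0.22 (SE 0.22). The third, 1442827_at, read 5.60, 4.61 and 5.09 in ImHABCL6/Uchl1 arrays and 5.01, 5.14 and 4.75 in ImHABCL6 arrays, with a difference of 0.13 (SE 0.25). Replicate 2 of the transgenic group was thus the lowest of the 6 arrays in these 3 probe sets. The fourth, 1430695_at, lay above 3.96% of genes, at 3.09, 3.38 and 3.24 in ImHABCL6/Uchl1 arrays and 2.97, 3.02 and 2.99 in ImHABCL6 arrays. It was the only probe set of the 16 whose groups did not overlap (0.25, SE 0.13, limma adjusted p = 0.999 among all probe sets). By the brightest probe set, groups without overlap occurred in 9.44% of all genes.

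Cd180 had the largest difference of the set, and its values in ImHABCL6/Uchl1 cells reached into the control range in a single array. Cd180 encodes RP105, a B-cell surface protein that forms a complex with MD-1, the product of Ly86, and modulates responses to lipopolysaccharide. It read 10.06, 9.43 and 9.85 in ImHABCL6/Uchl1 arrays, against 9.49, 9.37 and 9.33 in ImHABCL6 arrays. Replicates 1 and 3 of the transgenic group lay above all controls, while replicate 2 lay between them. The means were 9.78 ± 0.32 and 9.40 ± 0.08 (SD, n = 3 each), a 1.30-fold difference (log2 0.38, SE 0.18, 95% interval -0.03 to 0.79). The unadjusted limma p was 0.0648, and an exact two-sided permutation test gave p = 0.2. Of all genes the central 95% had differences between -0.63 and 0.32, and Cd180 lay above that range. Leaving out replicate 2 of the transgenic group gave 0.56, and leaving out its replicate 1 gave 0.24, with limma adjusted p of at least 0.567 whichever array was left out.

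Ly86, the partner of CD180, lay above 98.8% of genes. It read 12.81, 12.35 and 12.69 in ImHABCL6/Uchl1 arrays and 12.46, 12.44 and 12.31 in ImHABCL6 arrays. Replicates 1 and 3 of the transgenic group were again above every control and replicate 2 was within the control range, and the difference was 0.22 (SE 0.16, limma adjusted p = 0.998). It was 0.12 without ImHABCL6/Uchl1 replicate 1 and 0.35 without ImHABCL6/Uchl1 replicate 2. The B-cell marker mean, given above, was highest in ImHABCL6/Uchl1 replicate 1 and was higher in every transgenic array than in every control. Its single markers differed by -0.03 (Cd79b) to 0.48 (Pax5). The part of the B-cell marker mean in the Cd180 and Ly86 values was not tested.

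**Figure D2:**
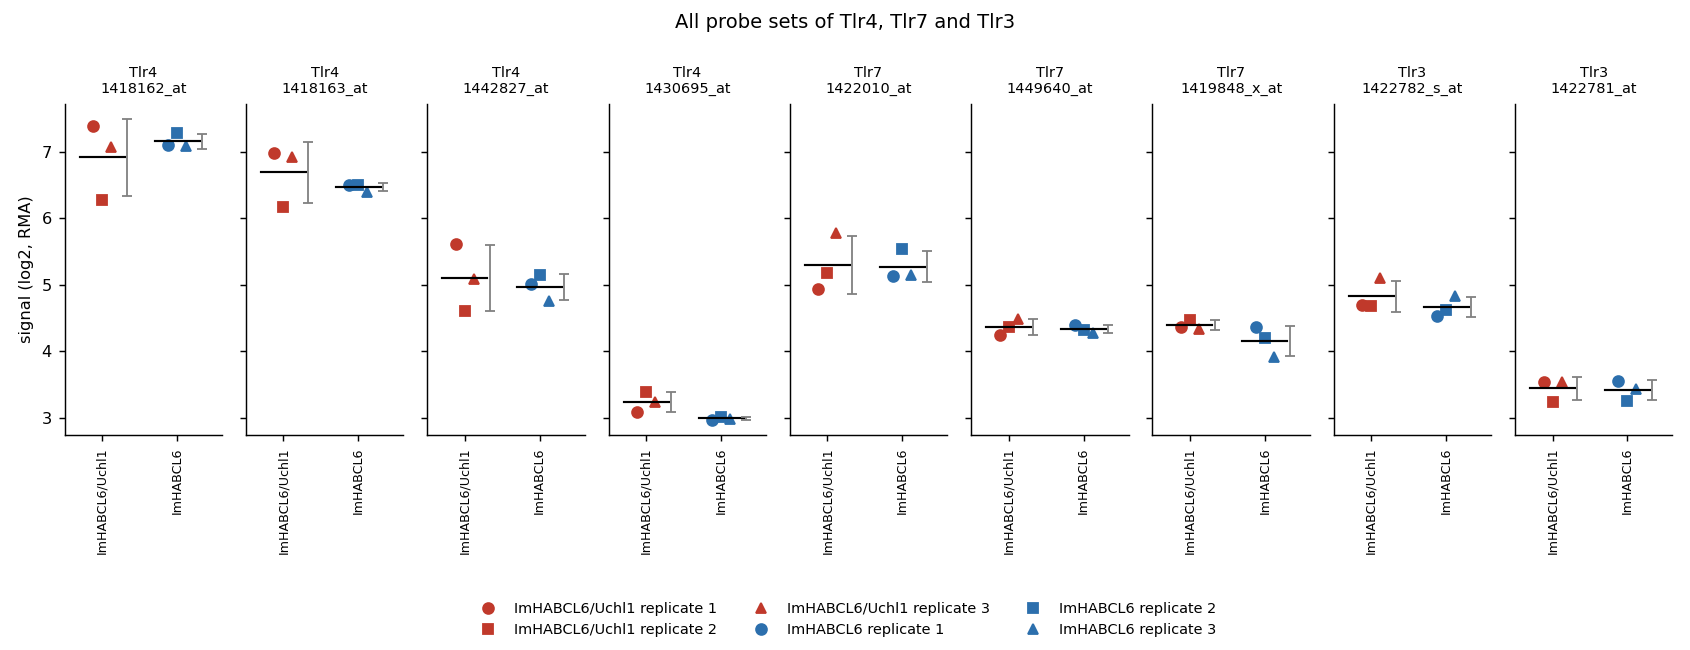
Signal (log2, RMA) of all probe sets of Tlr4 (4), Tlr7 (3) and Tlr3 (2), in ImHABCL6/Uchl1 arrays left of ImHABCL6 arrays, with group means (black lines) and the SD of 3 arrays (grey bars). ImHABCL6/Uchl1 replicate 2 (red square) is lowest in the Tlr4 probe sets 1418162_at, 1418163_at and 1442827_at, and the groups are apart only in 1430695_at.

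Among the endosomal receptors Tlr9, the receptor for unmethylated CpG DNA, lay above 52.2% of genes. It read 6.40, 6.80 and 6.49 in ImHABCL6/Uchl1 arrays and 6.32, 6.61 and 6.61 in ImHABCL6 arrays. The groups overlapped, with the highest value in a transgenic mouse and the lowest in a control, and the difference was 0.05 (SE 0.16, 95% interval -0.32 to 0.41).

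Tlr7, the receptor for single-stranded RNA, read 4.94, 5.17 and 5.78 in ImHABCL6/Uchl1 arrays against 5.12, 5.54 and 5.15 in ImHABCL6 arrays on its brightest probe set (1422010_at, above 35.4% of genes). Again the transgenic mice held the lowest and the highest value, and the difference was 0.02 (SE 0.23, 95% interval -0.51 to 0.56). Leaving out replicate 3 of the transgenic group gave -0.22, and leaving out its replicate 1 gave 0.20. The other Tlr7 probe sets had differences of 0.04 (1449640_at, SE 0.13) and 0.23 (1419848_x_at, SE 0.15), and on 1419848_x_at ImHABCL6 replicate 3 stood low at 3.91.

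Tlr3, the receptor for double-stranded RNA that signals without MYD88, read 4.70, 4.68 and 5.09 in ImHABCL6/Uchl1 arrays and 4.53, 4.62 and 4.83 in ImHABCL6 arrays (1422782_s_at, above 26.8% of genes). The third array of each group was the highest in it, and the difference was 0.17 (SE 0.16, 95% interval -0.21 to 0.54). Its other probe set (1422781_at) lay above 7.61% of genes and differed by 0.03 (SE 0.15). That probe set was highest in ImHABCL6 replicate 1 (3.55), and 1419848_x_at of Tlr7 in ImHABCL6/Uchl1 replicate 2 (4.47). On their brightest probe sets Tlr7, Tlr3 and also Tlr2 (5.66) were highest in ImHABCL6/Uchl1 replicate 3, as was 1449640_at of Tlr7 (4.49). These were 3 of the 10 members, beside 12.5% of all genes with their highest value in that array. That array also had the highest mean of the 12 macrophage and monocyte markers, 5.40, against 4.98 and 5.03 in the other ImHABCL6/Uchl1 arrays and 4.86 to 5.06 in ImHABCL6 arrays. Lysozyme (Lyz2, 10.55) and the growth factor receptor Csf1r (8.11) stood out there, at 8.13 to 8.89 and 6.46 to 6.57 in the other ImHABCL6/Uchl1 arrays and 7.30 to 8.75 and 6.48 to 6.84 in ImHABCL6 arrays. It was the highest array for 4 of the 12 markers (Lyz2, Csf1r, Vcam1 and Itgam) and not for Adgre1, Cd68, C1qa, C1qb, C1qc, Mertk, Marco and Cd163. Over all arrays the 12 lay above 4.78% (C1qb) to 75.2% (Lyz2) of genes. Cd14, a co-receptor of myeloid cells, was highest in ImHABCL6/Uchl1 replicate 2 (4.85), and Tlr4 on its brightest probe set in ImHABCL6/Uchl1 replicate 1 (7.39). The part of macrophages and monocytes in the Tlr7, Tlr3 and Tlr2 values was not tested.

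Unc93b1, which escorts the nucleic acid receptors out of the endoplasmic reticulum, lay above 89.7% of genes. It read 10.35, 10.07 and 10.06 in ImHABCL6/Uchl1 arrays and 10.22, 9.88 and 9.85 in ImHABCL6 arrays. Replicate 1 was the highest array in each group, and the difference was 0.17 (SE 0.16, 95% interval -0.19 to 0.54, exact two-sided permutation p = 0.3). Without ImHABCL6 replicate 1 it was 0.29, and without ImHABCL6/Uchl1 replicate 1 it was 0.08.

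Myd88, the adaptor shared by these receptors and by the interleukin-1 receptor family, lay above 78.8% of genes. Its values were 9.29, 8.57 and 9.10 in ImHABCL6/Uchl1 arrays, against 9.07, 8.88 and 8.76 in ImHABCL6 arrays. Replicates 1 and 3 of the transgenic group exceeded all controls and replicate 2 fell short of all of them. The means were 8.99 ± 0.37 and 8.90 ± 0.15 (SD, n = 3 each), and the difference was 0.09 (SE 0.20), with a 95% interval from -0.38 to 0.55, or from 1.30-fold lower to 1.46-fold higher. Leaving out replicate 2 of the transgenic group gave 0.29, and leaving out its replicate 1 gave -0.06. The genes whose deviations over the 6 arrays were closest to those of Myd88 were 3000002C10Rik, Tgoln1, a protein of the trans-Golgi network, and Tmed5, a cargo receptor of the early secretory pathway. Their root mean square distances were 0.027, 0.033 and 0.034 log2 units, against a median of 0.286 over 18192 genes, and 26 genes lay within 0.05.

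The 250 bases before the start site of Tlr9, Tlr6 and Myd88 are shown because each holds a match to the octamer of B-cell promoters or to the interferon-stimulated response element, in genes whose levels overlapped between the genotypes. Sequences are from RefSeq (build GRCm38.p6), run 5′ to 3′ on the gene's strand, and have matches in capitals. The motifs, searched on both strands, were the octamer ATGCAAAT, the interferon-stimulated response element GAAANNGAAA, the PU.1 core AGGAAGT and the NF-kB consensus.
Tlr9, chr9:106222348-106222597, plus strand: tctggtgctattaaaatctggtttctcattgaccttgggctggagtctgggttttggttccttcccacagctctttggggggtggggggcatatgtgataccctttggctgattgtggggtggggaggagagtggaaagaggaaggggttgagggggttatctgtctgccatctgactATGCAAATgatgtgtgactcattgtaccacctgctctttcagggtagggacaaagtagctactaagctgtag
Tlr6, chr5:64959167-64959416, minus strand: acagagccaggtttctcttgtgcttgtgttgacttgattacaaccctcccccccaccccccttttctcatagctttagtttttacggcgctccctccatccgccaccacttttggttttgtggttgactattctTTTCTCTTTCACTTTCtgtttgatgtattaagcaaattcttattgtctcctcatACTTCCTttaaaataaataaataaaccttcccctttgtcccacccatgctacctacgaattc
Myd88, chr9:119340019-119340268, minus strand: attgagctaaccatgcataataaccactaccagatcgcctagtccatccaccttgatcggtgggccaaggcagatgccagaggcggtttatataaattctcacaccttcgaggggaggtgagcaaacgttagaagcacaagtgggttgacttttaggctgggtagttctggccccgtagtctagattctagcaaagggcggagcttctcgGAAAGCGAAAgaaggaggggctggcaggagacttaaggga
The capitals in Tlr9 are an octamer that begins 72 bases before the start, and those in Myd88 are a response element that begins 40 bases before it. Tlr6 holds 2 overlapping matches to the response element on the opposite strand, 116 and 110 bases before the start, and a PU.1 core at 62 bases. The table gives Tlr6 a second start site, whose window (chr5:64960049-64960298, minus strand) held no match to the motifs searched. Of 32851 such windows in the table, 1.6% held the octamer, 2.98% the response element, 7.69% the PU.1 core and 7.25% the NF-kB consensus. The table matched 7 of the 10 members with 10 windows, and the octamer was found in 1 member, the response element in 2 (Tlr6 and Myd88), the PU.1 core in 2 (Tlr1 and Tlr6) and the NF-kB consensus in 2 (Tlr2 and Tlr3). The windows of Cd180, the member with the largest difference, held no match to the motifs searched. A match is a description of letters and not evidence of binding.

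Variation between mice was larger in the transgenic group for most members. The SD over 3 arrays was larger in ImHABCL6/Uchl1 for 8 of the 10 genes, with a median of 0.28, against 0.15 in ImHABCL6. Over all genes the SD was larger in ImHABCL6/Uchl1 in 69.4% of cases, with medians of 0.22 and 0.15, so most genes shared this direction. ImHABCL6/Uchl1 replicate 1 held the highest value of 5 members (Tlr1, Tlr4, Cd180, Unc93b1 and Myd88), and it held the highest value of 22.6% of all genes. ImHABCL6/Uchl1 replicate 2 held the lowest value of 3 members (Tlr4, Tlr6 and Myd88) and of 28.0% of all genes. Replicate 1 was the array with the lowest red-cell mean, and the part of that in the members' values was not tested.

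**Figure D3:**
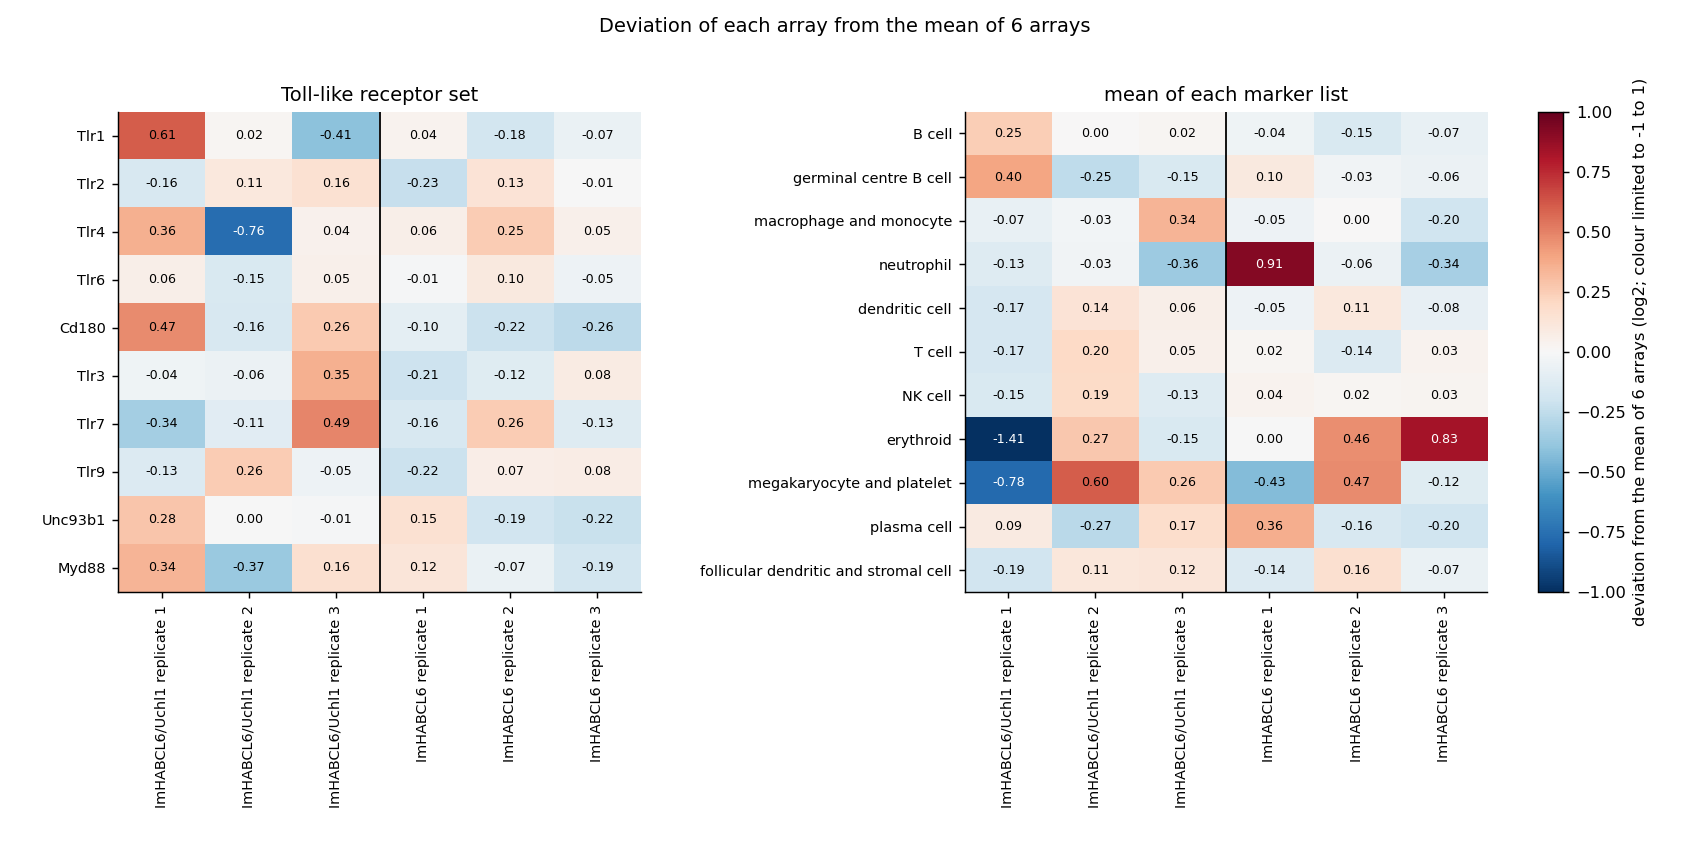
Deviation of each array from the mean of the 6 arrays (log2), for the 10 genes (left) and for the mean of each cell type marker list (right), with ImHABCL6/Uchl1 arrays left of the line and ImHABCL6 arrays right of it. Tlr1, Cd180, Tlr4, Myd88 and Unc93b1 are highest in ImHABCL6/Uchl1 replicate 1, where the erythroid mean is lowest, and Tlr4 and Myd88 are lowest in ImHABCL6/Uchl1 replicate 2.

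Around the receptors, lists of 92 pathway genes were read, of which 83 had a probe set and 0 passed the adjusted threshold. Groups without overlap occurred in 8 of the 83 (9.64%), beside 9.44% of all genes, and an unadjusted p under 0.05 in 6 (7.23%), beside 4.94%. The median difference was 0.01. Of the other Toll-like receptors 4 of 5 were measured (Tlr5, Tlr8, Tlr12 and Tlr13), on probe sets above 16.8% to 45.9% of genes. Their groups overlapped, and differences ran from 0.0016 (Tlr12) to 0.17 (Tlr8, SE 0.18).

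Among ligand-binding partners and co-receptors 4 of 5 were higher in ImHABCL6/Uchl1 cells, the median was 0.22, and 0 passed. The lipopolysaccharide-binding protein Lbp, a secreted protein chiefly made in liver, read 4.98, 5.07 and 5.11 in ImHABCL6/Uchl1 arrays and 4.86, 4.78 and 4.57 in ImHABCL6 arrays. It was the only gene of its list whose groups lay apart (0.32, SE 0.13, limma adjusted p = 0.998), and the mean of all its probe sets gave 0.07 (SE 0.15). Ly96 (MD-2), which binds lipopolysaccharide together with TLR4, read 7.69, 6.77 and 7.49 in ImHABCL6/Uchl1 arrays and 7.37, 7.04 and 6.67 in ImHABCL6 arrays. As on the brightest probe set of Tlr4, replicate 2 was the low array of the transgenic group, although for Ly96 ImHABCL6 replicate 3 (6.67) was lower still. The difference of Ly96 was 0.29 (SE 0.27). It was 0.10 without ImHABCL6/Uchl1 replicate 1 and 0.57 without ImHABCL6/Uchl1 replicate 2. Cd14, a co-receptor of myeloid cells, lay above 22.8% of genes and differed by 0.16 (SE 0.17), and by 0.03 without ImHABCL6/Uchl1 replicate 2.

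Genes for folding, trafficking and endosomal processing of the receptors numbered 14 measured of 16, and 9 of them were lower (median -0.04), while 0 passed and 0 had groups apart. Cathepsin B (Ctsb), an endosomal protease, read 10.16, 11.41 and 11.06 in ImHABCL6/Uchl1 arrays and 10.98, 11.48 and 11.74 in ImHABCL6 arrays, a difference of -0.52 (SE 0.33) that was -0.16 without ImHABCL6/Uchl1 replicate 1. That array also had the lowest red-cell marker mean (9.07). ImHABCL6 replicate 3 had the highest value of both Ctsb (11.74) and the red-cell mean (11.31). The part of red cells in the Ctsb values was not tested. Pld4, an endosomal exonuclease that trims nucleic acid ligands, differed by 0.33 (SE 0.25), and by 0.03 without ImHABCL6/Uchl1 replicate 1. Ap3b1, a subunit of the adaptor that sorts receptors to lysosome-related compartments, differed by 0.22 (SE 0.19), and by 0.10 without ImHABCL6 replicate 3. Hsp90b1 (gp96), the endoplasmic reticulum chaperone of Toll-like receptors, differed by -0.22 (SE 0.20). The value was -0.35 without ImHABCL6 replicate 2 and -0.03 without ImHABCL6/Uchl1 replicate 2.

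Adaptors and signalling genes held 5 of the 8 pathway genes whose groups lay apart, 3 of them higher and 2 lower, among 27 measured of 33, a share of 18.5% beside 9.44% of all genes (3.95% higher and 5.49% lower). Tirap, which bridges MYD88 to TLR2 and TLR4, read 9.06, 8.89 and 8.88 in ImHABCL6/Uchl1 arrays and 8.63, 8.62 and 8.52 in ImHABCL6 arrays (0.35, SE 0.13), and the mean of all its probe sets gave 0.22 (SE 0.15). Traf6, the ubiquitin ligase that relays the signal from IRAK kinases, read 7.69, 7.66 and 7.85 in ImHABCL6/Uchl1 arrays and 7.50, 7.42 and 7.25 in ImHABCL6 arrays (0.34, SE 0.13), and the mean of all its probe sets gave 0.06 (SE 0.12). On these brightest probe sets every transgenic array exceeded every control for both genes, although each had a limma adjusted p of 0.983.

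On the lower side, the kinase Irak2 read 7.28, 7.29 and 7.33 in ImHABCL6/Uchl1 arrays and 7.59, 7.68 and 7.62 in ImHABCL6 arrays (-0.33, SE 0.12, limma adjusted p = 0.983). Irf7, the transcription factor that MYD88 activates downstream of TLR7 and TLR9 and that interferon induces, read 8.33, 8.75 and 8.80 in ImHABCL6/Uchl1 arrays and 9.23, 9.25 and 9.21 in ImHABCL6 arrays (-0.60, SE 0.16, limma adjusted p = 0.854). The controls were tight in both genes and the transgenic arrays lay below all of them. Tirap, Traf6, Irak2 and Irf7 were named for the smallest unadjusted p of the list, and the NF-kB subunit Rela because its groups lay apart. All were thus chosen after their values were seen. Rela differed by 0.10 (SE 0.12). The median of the 27 genes was -0.03, with 16 lower and 11 higher.

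Of the 12 inhibitors of the pathway, 6 were lower and 6 higher (median -0.01), and 0 passed. Dusp1, a phosphatase that limits p38 and JNK signalling and is an immediate early gene, read 8.66, 8.56 and 8.93 in ImHABCL6/Uchl1 arrays and 9.06, 9.38 and 9.72 in ImHABCL6 arrays (-0.67, SE 0.19, limma adjusted p = 0.878). It was the only inhibitor whose groups lay apart, and its controls spread over more than the transgenic arrays. Tnip1, a partner of the ubiquitin-editing enzyme A20, differed by -0.23 (SE 0.18), Irak3, an IRAK family inhibitor, by 0.19 (SE 0.19) and Socs1, a suppressor of cytokine signalling, by -0.32 (SE 0.32).

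Of the 21 NF-kB response genes, 14 were higher and 7 lower (median 0.03), and 0 passed. Il12b, a cytokine subunit, lay above 14.8% of genes, at 3.99, 4.05 and 4.03 in ImHABCL6/Uchl1 arrays and 3.88, 3.89 and 3.88 in ImHABCL6 arrays, the only separated gene of the list at a difference of 0.14 (SE 0.12), or 0.08 with the mean of all its probe sets. The costimulatory ligand Cd86 read 10.01, 9.41 and 9.23 in ImHABCL6/Uchl1 arrays and 9.01, 9.61 and 9.41 in ImHABCL6 arrays, with groups that overlapped widely (0.21, SE 0.24). Its relative Cd80 differed by -0.16 (SE 0.17) and the cytokine Il1b by 0.15 (SE 0.18).

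**Figure D4:**
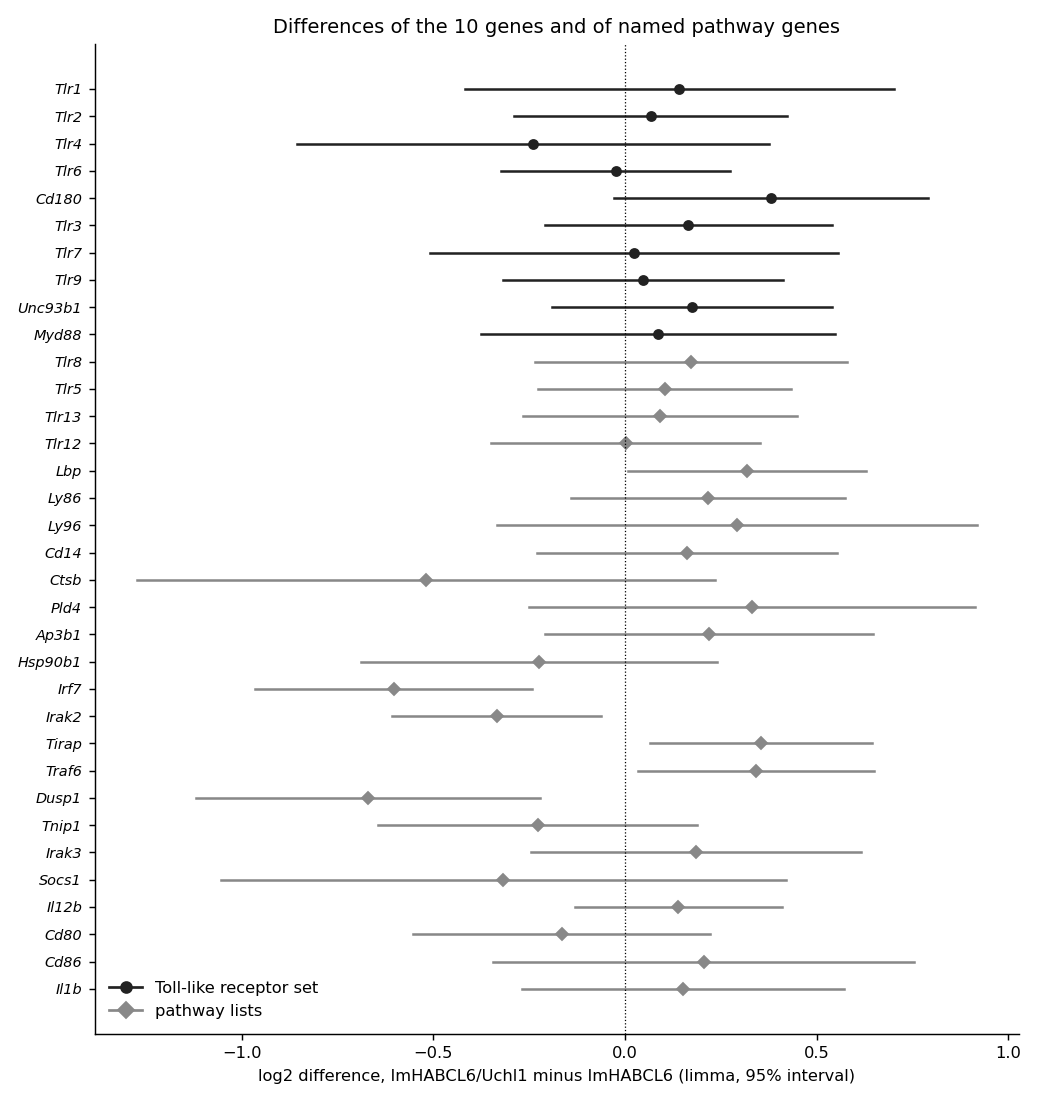
Log2 differences of ImHABCL6/Uchl1 minus ImHABCL6 with 95% intervals from limma, for the 10 genes (black circles) and the named genes of the pathway lists (grey diamonds). The intervals of all 10 genes include 0, and those of Lbp, Irf7, Irak2, Tirap, Traf6 and Dusp1 do not, although none passed after adjustment over all genes.

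**Figure D5:**
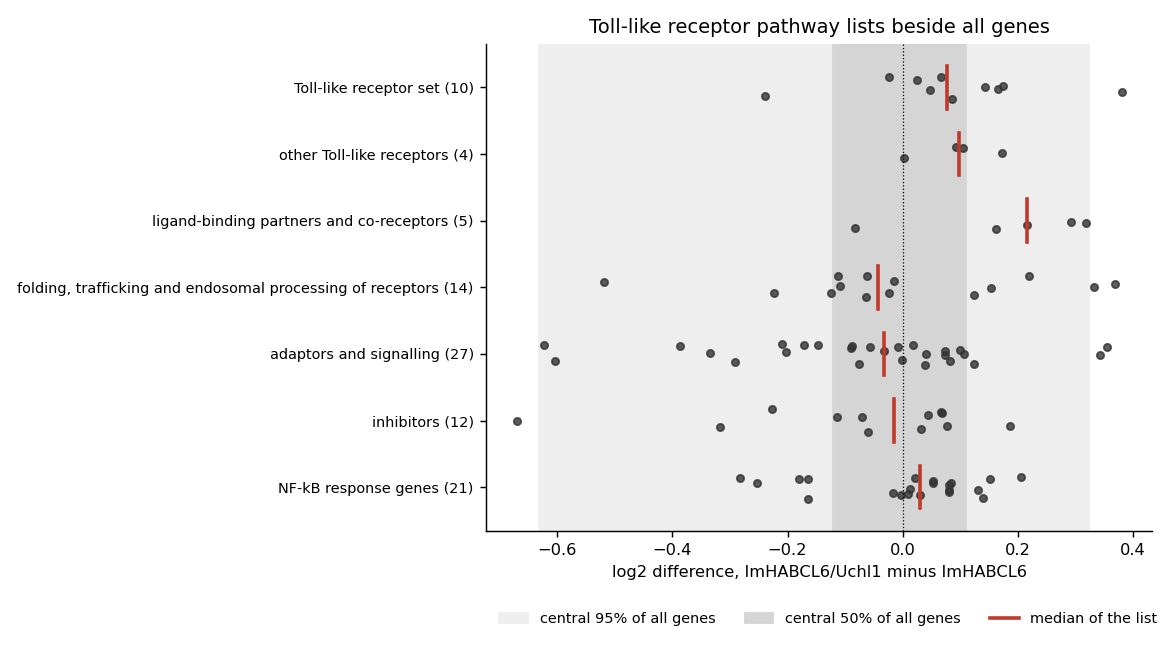
Log2 differences of ImHABCL6/Uchl1 minus ImHABCL6 for each measured gene of the Toll-like receptor set and of the pathway lists (number of genes in brackets), with list medians in red. The shaded bands hold the central 95% (-0.63 to 0.32) and 50% (-0.12 to 0.11) of all 18193 genes, and Cd180 is the member outside the wider band.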

How the data were processed

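Total RNA from the 6 mice was labelled with an Affymetrix 3' IVT kit, per the labels' protocols. The authors deposited a log2 level for each probe set on each array. Per the submitters' processing notes these came from RMA, and Partek was used as well; no versions are given there. RMA compresses differences of dim probe sets, and no detection calls were used here.

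Of 45101 probe sets, 34945 had exactly 1 gene symbol in GEO's platform annotation, 932 had several and 9224 none or were controls. Symbols were checked through Entrez identifiers against a RefSeq table (GRCm38.p6), which matched 18031 of 18193 genes and changed 0. Each gene was represented by its brightest probe set, with no filter on dim genes. The genotypes were set against each other in limma 3.58.1 under R 4.3.3 (two-sided moderated test, Benjamini-Hochberg over all genes, threshold 0.05), without a block, and single genes also with exact permutation tests. The steps were tested on simulated data. The members and lists were chosen with earlier results of these data known. Named pathway genes were up to 4 of smallest unadjusted p per list, plus Ly86 and Uchl1, and the 3 genes closest to Myd88. Rela was named as well, because its groups lay apart. The number of arrays limits the precision. Alternatives changed the probe set rule, filter, normalization, variance model, weights, block and single arrays. Promoter windows were the 250 bases upstream in the RefSeq table, which 7 of the 10 members matched. Figures were drawn with matplotlib 3.10.9.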

Additional observations from a re-analysis of the deposited data

How the results depend on the processing

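No member passed under any of 15 alternative settings (lowest limma adjusted p 0.166), none of the 25 further named genes did, and 0 genes passed in any setting. Rela and the genes closest to Myd88 were not among the 25. Among the 25 the lowest limma adjusted p was 0.0689, for Uchl1 itself with array weights. The lowest of a pathway gene among the 25 was 0.159, for Irf7 with array weights. With the replicate number as a block the count of passing genes was also 0. The numbers are not stated to pair mice, and correlations of same-numbered deviations were 0.43, 0.19 and -0.26, with ImHABCL6/Uchl1 replicate 2 closest to ImHABCL6 replicate 3 (0.53), so the numbers were not treated as pairs. Of 147 member values, 129 kept their direction, but many of them could not turn. Testing every probe set, the change of variance model, the block and the filter on dim genes leave each difference as it was. The probe set rules do the same for members with a single probe set. The number of members lower in ImHABCL6/Uchl1 was 2, and it was 1 with the mean of all probe sets and 1 with arrays centred on medians. Leaving out single arrays gave 1 (without ImHABCL6/Uchl1 replicate 2 or ImHABCL6 replicate 2) to 5 (without ImHABCL6 replicate 1), with 4 without ImHABCL6/Uchl1 replicate 1, and put the members' median between 0.03 and 0.13.

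Signs turned as follows. Averaging probe sets gave 0.091 for Tlr4, median centring 0.0022 for Tlr6, and quantile normalization 0.047 for Tlr6, -0.025 for Tlr7 and -0.0052 for Tlr12. Array weights, which gave ImHABCL6/Uchl1 replicate 3 the highest weight (3.30) and its replicate 2 the lowest (0.30), turned Tlr1 to -0.16, Tlr6 to 0.0085, Tlr9 to -0.045, Tlr12 to -0.043, Hsp90b1 to 0.027, Socs1 to 0.20, Cd86 to -0.076 and Il1b to -0.014. Without single arrays, ranges crossed 0 for Tlr1 (-0.12 to 0.38), Tlr2 (-0.030 to 0.16), Tlr4 (-0.48 to 0.081), Tlr6 (-0.061 to 0.045), Tlr7 (-0.22 to 0.20), Tlr9 (-0.069 to 0.13), Myd88 (-0.063 to 0.29), Tlr12 (-0.11 to 0.11), Socs1 (-0.65 to 0.026) and Cd86 (-0.025 to 0.36). Cd180 (0.24 to 0.56), Unc93b1 (0.08 to 0.29) and Tlr3 (0.03 to 0.25) kept their sign. Tirap ranged from 0.30 to 0.39, Traf6 from 0.27 to 0.40 and Irak2 from -0.35 to -0.31. Irf7 ranged from -0.69 to -0.46 and Dusp1 from -0.83 to -0.50. The groups of Tirap, Traf6, Irak2, Irf7 and Dusp1 lay apart, so leaving out an array could not turn their sign. Ranges were wide but of 1 sign for Tlr8 (0.05 to 0.29), Tlr5 (0.04 to 0.22), Tlr13 (0.03 to 0.20), Pld4 (0.03 to 0.56), Ctsb (-0.79 to -0.16), Tnip1 (-0.32 to -0.09), Irak3 (0.04 to 0.31), Cd80 (-0.32 to -0.07) and Il1b (0.00031 to 0.28). The mean of all probe sets gave smaller values for Traf6 (0.06), Lbp (0.07), Il12b (0.08), Tlr3 (0.10), Ap3b1 (0.11) and Tirap (0.22). It gave larger ones for Tlr7 (0.10), Tlr12 (0.06) and Irak3 (0.22). Quantile normalization gave larger values for Cd180 (0.49, SE 0.12, limma adjusted p = 0.901), Tirap (0.46) and Traf6 (0.44). It gave smaller changes for Irf7 (-0.50), Irak2 (-0.24) and Dusp1 (-0.56). Array weights gave 0.46 for Cd180 (SE 0.12, limma adjusted p = 0.166), 0.36 for Tlr3 and 0.04 for Pld4. The cause of these changes was not tested. The filter on dim genes, which keeps genes above the median mean level, removed Tlr2, Tlr3 and Tlr7, so they have no value under it; without detection calls, signal over background cannot be given.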
